A study of Mus musculus with 9 samples.

Results

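The 10 genes described here, Cr2, Cd1d1, Cd9, S1pr3, Notch2, Dtx1, Hes1, Myof, Plac8 and Tm6sf1, are known from marginal zone B cells. They were taken by gene symbol from a table of 17596 genes, and each of the 10 had a row. Marginal zone B cells are the B cells that lie at the rim of the splenic follicles next to the blood sinus. They form when the receptor Notch2 meets its ligand on stromal cells, which frees the intracellular part of Notch2 to enter the nucleus and switch on targets with the DNA-binding protein RBPJ. They carry high levels of complement receptor and CD1d, are held in place by receptors for the blood lipid sphingosine-1-phosphate, and answer quickly to microbial products such as LPS.

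Splenic B cells of 2 genotypes were sequenced for their RNA. All groups carried Cre recombinase expressed from the Mb1 (Cd79a) locus, which acts in the whole B cell lineage from the bone marrow onwards. Mb1Cre cells served as controls, and Mct1f/fMb1Cre cells also carried loxP sites around the first exons of Slc16a1, the gene of the monocarboxylate transporter MCT1, so that Cre removes them. The mice were young adults on a C57BL/6J background. Day 0 cells were sequenced after isolation (2 libraries for each genotype), and day 3 cells after 3 days of culture with IL-4 at 50 ng/ml and LPS at 10 μg/ml (2 Mb1Cre and 3 Mct1f/fMb1Cre libraries). The libraries hold all isolated B cells and not a marginal zone sort. Nothing in the labels says that libraries of a group came from different mice, so p-values measure only the spread between these libraries.

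Values are FPKM, fragments scaled to transcript length and to the mapped fragments of the library. They sum to between 477079 and 491459 in a library of day 0 and to between 547355 and 563586 in one of day 3. The main fit did not scale the libraries to a common total. Without read counts the depth is unknown. Slc16a1 itself was at 4.33 and 3.80 FPKM in the Mb1Cre libraries on day 0 and at 3.71 and 4.06 FPKM in the Mct1f/fMb1Cre libraries. On day 3 it was at 22.58 and 22.95 FPKM in Mb1Cre and at 10.82, 9.81 and 9.50 FPKM in Mct1f/fMb1Cre cells, so transcript was lower in the floxed genotype on day 3 but still counted. The 4 B cell markers Cd79a, Cd79b, Ms4a1 and Pax5 summed to between 3237 and 3641 FPKM on day 0 and to between 1487 and 1552 FPKM on day 3. The Y-linked gene Ddx3y was at 0.24 FPKM or less in both Mb1Cre libraries of day 0, at 31.13 FPKM in 1 of the 2 Mct1f/fMb1Cre libraries of day 0, and between 14.69 and 16.91 FPKM in all 5 libraries of day 3. The effect of activation in Mb1Cre cells therefore cannot be told apart from a difference in the sex of the mice.

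On GRCm38 all 10 genes are annotated as protein coding. Cr2 lies on chr1:195136811-195176880 on the minus strand with 25 exons in its longest coding transcript. Dtx1 lies on chr5:120680203-120711867 on the minus strand with 10 exons, Notch2 on chr3:98013538-98150367 on the plus strand with 34 exons, and Hes1 on chr16:30065357-30067796 on the plus strand with 4 exons. S1pr3 lies on chr13:51408618-51422797 on the plus strand, Cd9 on chr6:125460266-125494760 on the minus strand and Cd1d1 on chr3:86995834-87012358 on the minus strand. Plac8 (chr5:100551589-100572253, minus strand), Tm6sf1 (chr7:81858718-81884079, plus strand) and Myof (chr19:37899036-38043577, minus strand) complete the set. GENCODE places antisense or other opposite-strand transcripts over Cd9 (Gm28809 and Gm26728), S1pr3 (Gm32834) and Tm6sf1 (Gm45014 and Hdgfl3). Whether the counting used strand is not given in the sources used here, so reads of these overlapping genes may not have been separated. Cd1d1 has a near-identical neighbour, Cd1d2, which had no row in the FPKM values used here and could share reads with it.

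The promoters of the members were searched for TGGGAA, the core sequence to which RBPJ binds, on both strands of RefSeq windows that reach from 250 bases before to 50 bases after the start of transcription. RefSeq promoter windows (GRCm38.p6) were found for 7 of the 10 members. Cd1d1, Hes1 and Tm6sf1 had no entry. The windows of 4 of the 7 held the core, namely Cr2, Cd9, S1pr3 and a second start of Plac8. Of all 32851 promoter windows 25.6% held it. A member counted with a match in any of its windows, so its count and the share of single windows are on unlike units. The windows of Notch2, Dtx1 and Myof did not hold these letters. The start used for the window lies inside the RefSeq gene for Cr2 (195176719), Dtx1 (120711669) and Plac8, so part of what precedes it belongs to the annotated gene. Cr2 and Cd9 are printed because they hold the core upstream, with only those window bases that lie before the gene in both RefSeq and GENCODE. For S1pr3, 30 bases around its match downstream of the start are printed. Capitals mark the core.
Cr2, chr1:195176881-195176969, minus strand: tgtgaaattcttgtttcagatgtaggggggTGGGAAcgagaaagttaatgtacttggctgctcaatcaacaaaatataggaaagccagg
Cd9, chr6:125494792-125495010, minus strand: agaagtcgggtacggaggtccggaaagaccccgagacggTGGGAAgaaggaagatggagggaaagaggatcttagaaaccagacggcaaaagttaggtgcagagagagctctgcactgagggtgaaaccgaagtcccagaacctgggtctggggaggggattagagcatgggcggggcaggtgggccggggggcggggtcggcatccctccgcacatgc
S1pr3, chr13:51408619-51408648, plus strand: cggggacgtggcTGGGAAccagggcgtatc
The core begins at position -220 from the start used in Cr2 and at position -211 in Cd9. A match of these letters is a description of the window, and no binding was measured.

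In Mb1Cre cells on day 0 the members ranged from 7.20 ± 0.905 FPKM for Myof to 419 ± 29.4 FPKM for Plac8 (mean ± SD, n = 2). In the order of their FPKM levels Plac8 was followed by Cr2, Dtx1, Tm6sf1, Notch2, Cd9, Cd1d1, Hes1, S1pr3 and Myof. Each neighbour in this order was separate from the next in both libraries, except Cd1d1 and Hes1, whose values overlapped. The Mct1f/fMb1Cre order on day 0 differed by the exchange of Cd1d1 and Cd9, and there Cd9 and Hes1 overlapped. On day 3 Cr2 had moved from the 2nd to the 9th place in both genotypes and Hes1 was the lowest, while Plac8 stayed in the first place and Notch2 was second. On day 3 Dtx1 and S1pr3 overlapped in Mb1Cre cells, and in Mct1f/fMb1Cre cells the neighbours from Notch2 through Dtx1 and S1pr3 to Tm6sf1 overlapped.

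**Figure D1:**
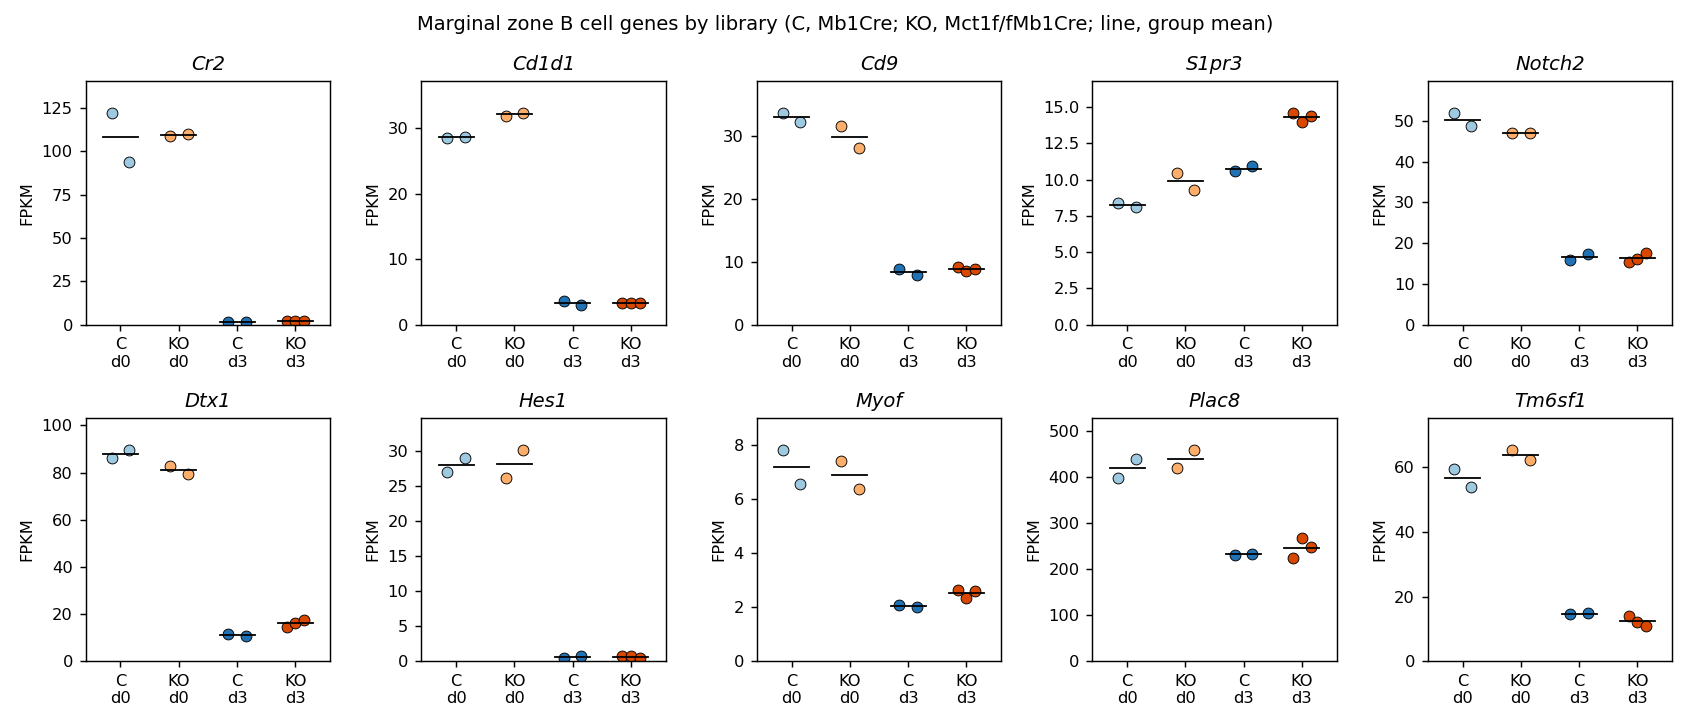
FPKM of the 10 members in each of the 9 libraries, 1 panel for each gene with a linear axis from 0. C is Mb1Cre and KO is Mct1f/fMb1Cre, d0 and d3 are days 0 and 3, points are libraries and lines are group means. In 9 panels both day 3 groups lie below both day 0 groups, and S1pr3 is the exception, with its highest values between 13.96 and 14.61 FPKM in the KO libraries of day 3. The share of all genes whose days lie apart was not counted.

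The first comparison asked how the members changed when B cells were activated. In Mb1Cre cells 9 of the 10 members fell and none rose, with Cr2 and Hes1 falling by far the most and Plac8 the least. The same 9 members fell in Mct1f/fMb1Cre cells. A call needed a log2 fold change over 0.5 in size together with a limma adjusted p under 0.05. Changes are on the scale of log2(FPKM + 1), which understates changes of genes at low FPKM. Of the 10823 genes tested 33% were called lower and 24.8% higher in Mb1Cre cells, and 33.2% lower and 23.4% higher in Mct1f/fMb1Cre cells. The median log2 fold change of the members was -1.87 in Mb1Cre and -1.95 in Mct1f/fMb1Cre cells, beside -0.12 and -0.14 over all genes tested. Within each genotype the values of the days did not overlap for the 10 members. The share of all genes without such overlap was not counted. An unadjusted p under 0.05 (limma) was reached by 85.3% of all genes in Mb1Cre and 86.1% in Mct1f/fMb1Cre cells, so days apart are common. In these bulk samples fewer cells of a type and less RNA per cell cannot be told apart. The 2 genotypes share no libraries in this comparison.

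Cr2 encodes the complement receptors CD21 and CD35, which bind complement-coated antigen. It was at 122.28 and 93.92 FPKM in Mb1Cre and at 108.72 and 110.07 FPKM in Mct1f/fMb1Cre cells on day 0, and at 1.49 and 1.60 FPKM and at 2.25, 1.97 and 2.29 FPKM on day 3. Every library of day 3 was far below every library of day 0, whatever the genotype. The mean was 70.0-fold lower on day 3 in Mb1Cre cells and 50.4-fold lower in Mct1f/fMb1Cre cells. The log2 fold changes of Cr2 were -5.41 ± 0.10 (SE, adjusted p = 5.8e-12, limma) and -5.12 ± 0.09 (adjusted p = 3.9e-12), the 16th and the 22nd lowest change of the 10823 genes. Cr2 is also expressed by follicular dendritic cells. Of their 2 markers in the table Mfge8 was between 6.16 and 9.37 FPKM on day 0 and between 6.53 and 8.36 FPKM on day 3, and Cxcl13 was between 0.24 and 0.60 FPKM on day 0 and at 0.09 FPKM or less on day 3. Their part in the fall of Cr2 was not tested.

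Cd1d1 encodes CD1d, which presents lipids to natural killer T cells. Its values were 28.51 and 28.66 FPKM in Mb1Cre and 31.87 and 32.31 FPKM in Mct1f/fMb1Cre cells on day 0. On day 3 they were 3.55 and 3.06 FPKM and 3.28, 3.38 and 3.26 FPKM. The days did not overlap, and 11.6% of the day 0 mean was left in Mb1Cre cells and 10.3% in Mct1f/fMb1Cre cells. On the log2 scale the changes were -2.78 ± 0.06 and -2.94 ± 0.06 (SE, adjusted p = 1.8e-11 and 7.1e-12, limma).

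Cd9 encodes a tetraspanin of the cell surface that sits beside integrins and other membrane proteins. On day 0 it was at 33.74 and 32.29 FPKM in Mb1Cre and at 31.72 and 28.08 FPKM in Mct1f/fMb1Cre cells, and on day 3 at 8.83 and 7.90 FPKM and at 9.25, 8.63 and 8.86 FPKM. The days did not overlap, and the level left was 25.3% in Mb1Cre and 29.8% in Mct1f/fMb1Cre cells. These were log2 fold changes of -1.86 ± 0.07 and -1.64 ± 0.07 (SE, adjusted p = 7.2e-10 and 8.9e-10, limma). Cd9 is abundant on platelets. Of the 3 platelet and megakaryocyte markers Ppbp was between 2.45 and 4.23 FPKM on day 0 and at 0.19 FPKM or less on day 3, Itga2b was between 0.81 and 1.26 FPKM and then between 0.10 and 0.25 FPKM, and Pf4 was between 0.72 and 4.83 FPKM and then between 2.05 and 3.79 FPKM. Their part in the fall of Cd9 was not tested.

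S1pr3, a receptor for sphingosine-1-phosphate that takes part in placing B cells in the marginal zone, went the other way. It was at 8.40 and 8.13 FPKM in Mb1Cre and at 10.47 and 9.29 FPKM in Mct1f/fMb1Cre cells on day 0. On day 3 it was at 10.59 and 10.94 FPKM and at 14.61, 13.96 and 14.40 FPKM. Within each genotype every day 3 library was above every day 0 library. The log2 fold changes, 0.34 ± 0.06 in Mb1Cre (SE, adjusted p = 3.9e-04, limma) and 0.50 ± 0.06 in Mct1f/fMb1Cre cells (adjusted p = 9.5e-06), passed the p threshold but not the limit on the fold change, which the second of them just missed. With median-of-ratios scaling both passed, at 0.54 and 0.70. With each library scaled to a common total the Mb1Cre value was 0.16 with an adjusted p of 0.062.

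Notch2, the receptor on which marginal zone B cells depend, was at 51.96 and 48.66 FPKM in Mb1Cre and at 46.95 and 47.03 FPKM in Mct1f/fMb1Cre cells on day 0. On day 3 it was at 15.99 and 17.40 FPKM and at 15.36, 16.18 and 17.51 FPKM. Thus 33.2% of the day 0 level was left in Mb1Cre and 34.8% in Mct1f/fMb1Cre cells, with no overlap between the days. Its log2 fold changes were -1.54 ± 0.07 and -1.47 ± 0.06 (SE, adjusted p = 1.8e-09 and 1.1e-09, limma).

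Dtx1 encodes Deltex1, a ubiquitin ligase that is a target and a regulator of Notch signalling. It was at 85.96 and 89.76 FPKM in Mb1Cre and at 82.94 and 79.55 FPKM in Mct1f/fMb1Cre cells on day 0. On day 3 it was at 11.64 and 10.90 FPKM in Mb1Cre and at 14.46, 16.48 and 17.36 FPKM in Mct1f/fMb1Cre cells. The floxed libraries were the lower ones on day 0 and the higher ones on day 3. Dtx1 fell by 2.86 ± 0.07 on the log2 scale in Mb1Cre (SE, adjusted p = 3.7e-11, limma) and by 2.27 ± 0.07 in Mct1f/fMb1Cre cells (adjusted p = 9.3e-11).

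Hes1 encodes a transcriptional repressor and is a well-known target of Notch receptors. On day 0 it was at 27.00 and 28.97 FPKM in Mb1Cre and at 26.13 and 30.15 FPKM in Mct1f/fMb1Cre cells. On day 3 all 5 libraries were under 1 FPKM, with 0.47 and 0.81 FPKM in Mb1Cre and 0.75, 0.75 and 0.50 FPKM in Mct1f/fMb1Cre cells. The day 0 mean was 43.7-fold and 42.2-fold above the day 3 mean. The log2 fold changes of Hes1 were -4.15 ± 0.12 and -4.13 ± 0.11 (SE, adjusted p = 6.8e-11 and 3.3e-11, limma). These were the 57th and the 54th lowest changes of all genes tested.

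Of the other 3 genes, Myof encodes myoferlin, a membrane protein involved in fusion and repair of membranes. It was at 7.84 and 6.56 FPKM in Mb1Cre and at 7.42 and 6.39 FPKM in Mct1f/fMb1Cre cells on day 0. On day 3 it was at 2.08 and 2.03 FPKM and at 2.64, 2.34 and 2.59 FPKM, which on the log2 scale was a change of -1.42 ± 0.10 and of -1.16 ± 0.09 (SE, adjusted p = 8.7e-08 and 2.1e-07, limma). Plac8 encodes a small cysteine-rich protein found in several kinds of leukocytes. Its values were 397.73 and 439.34 FPKM in Mb1Cre and 418.96 and 458.92 FPKM in Mct1f/fMb1Cre cells on day 0, and 231.48 and 233.59 FPKM and 223.74, 267.36 and 247.02 FPKM on day 3. The days were apart, but 55.6% and 56.1% of the level remained. The log2 fold changes of Plac8 were -0.84 ± 0.08 and -0.83 ± 0.07 (SE, adjusted p = 1.5e-06 and 6.9e-07, limma).

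Tm6sf1 encodes a protein with several membrane-spanning segments. It was at 59.44 and 53.74 FPKM in Mb1Cre and at 65.29 and 62.19 FPKM in Mct1f/fMb1Cre cells on day 0, and at 14.54 and 14.79 FPKM and at 13.99, 12.04 and 11.05 FPKM on day 3. The floxed libraries were the higher ones on day 0 and the lower ones on day 3, the reverse of Dtx1. The log2 fold changes were -1.88 ± 0.09 and -2.28 ± 0.08 (SE, adjusted p = 3.8e-09 and 3.5e-10, limma).

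**Figure D2:**
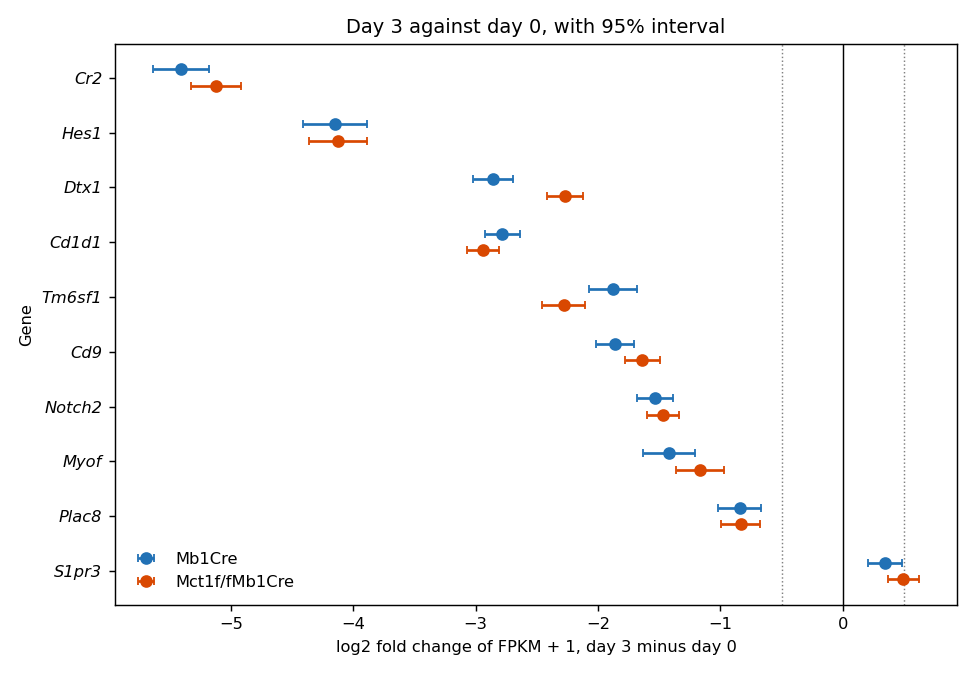
Log2 fold change of FPKM + 1 from day 0 to day 3 for each member in Mb1Cre (blue) and Mct1f/fMb1Cre (orange) cells, with the 95% interval from limma as bars and the limits at 0.5 and -0.5 dotted. Points lie from -5.41 for Cr2 to 0.50 for S1pr3, and the intervals of 9 members lie wholly below -0.5 in both genotypes.

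Markers of other cells moved with the day as well. The 7 myeloid markers summed to between 1002 and 1775 FPKM on day 0 and to between 15.4 and 26.2 FPKM on day 3, with Lyz2 the most abundant of them. Of the 4 erythroid markers Hbb-bs was listed at 0 in each library of day 3, and their sum was between 84.3 and 154 FPKM on day 0 and 0.52 FPKM or less on day 3. Of the 7 T and natural killer cell markers 6 were at least 10 times higher on day 0, and Gzma was higher on day 3. Their part in the fall of the members was not tested. The 4 B cell markers had log2 fold changes from -1.53 (Cd79a) to -0.88 (Pax5) in Mb1Cre and from -1.64 to -0.63 in Mct1f/fMb1Cre cells. Without Mct1f/fMb1Cre day 0 replicate 2, the library of that group with little Y-linked transcript, the members' log2 fold changes in Mct1f/fMb1Cre cells reached from -5.11 for Cr2 to 0.42 for S1pr3. That fit has 1 library on day 0 and takes its spread from the other groups. Y-linked transcript was present on both days in it, with Ddx3y at 31.13 FPKM on day 0 and between 15.39 and 16.91 FPKM on day 3. In Mb1Cre cells both libraries of day 0 lacked it, so no such contrast exists there. The part of sex in the members' changes was not tested.

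Genes of the Notch pathway other than the members moved in both directions, as did all genes tested. Of 38 listed genes 28 were tested, and 12 fell and 5 rose in Mb1Cre cells, beside 10 that fell and 5 that rose in Mct1f/fMb1Cre cells. Over all genes tested 33% fell and 24.8% rose in Mb1Cre cells, and 33.2% and 23.4% in Mct1f/fMb1Cre cells. The median log2 fold changes of the 28 Notch pathway genes were -0.39 and -0.36, beside -0.12 and -0.14 over all genes. Those that fell included the coactivators Maml2 (-1.33 and -1.73) and Maml3 (-1.14 and -1.17), the protease Adam10, which cuts Notch receptors at the surface (-0.81 and -0.70), and the target Hes5 (-0.94 and -0.61). Those that rose in both genotypes were the ligand gene Jag2 (1.52 and 0.53), the fucosyltransferase Pofut1 (1.19 and 0.98), the DNA-binding partner Rbpj (0.97 and 0.79), Dtx3l (0.85 and 0.84) and the receptor Notch1 (0.57 and 0.58). The 3 members of the pathway, Notch2, Dtx1 and Hes1, had lower log2 fold changes in Mb1Cre cells than each of the 28 other genes tested. In Mct1f/fMb1Cre cells Maml2 was below Notch2.

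**Figure D3:**
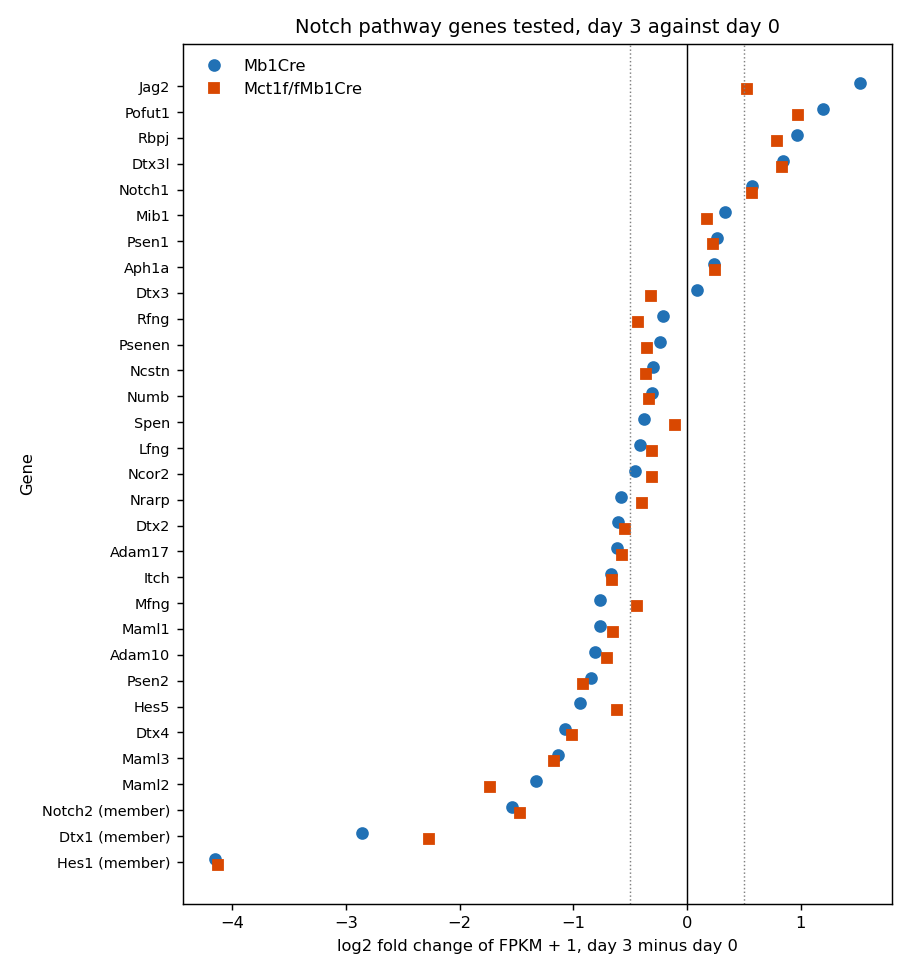
Log2 fold change of FPKM + 1 from day 0 to day 3 for the 28 Notch pathway genes tested and the 3 members Notch2, Dtx1 and Hes1, in Mb1Cre (circles) and Mct1f/fMb1Cre (squares) cells, with dotted lines at 0.5 and -0.5. The genes spread from Hes1 at -4.15 to Jag2 at 1.52 in Mb1Cre cells, and Jag2 is at 0.53 in Mct1f/fMb1Cre cells.

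A list of 16 partners of the members held the other sphingosine-1-phosphate receptors, the enzymes and transporter of this lipid, and proteins that work with CD21, CD1d and CD9. Of 11 tested, 7 fell and 1 rose in Mb1Cre cells, and 6 fell and none rose in Mct1f/fMb1Cre cells. Of all genes tested 33% fell and 24.8% rose in Mb1Cre cells, and 33.2% and 23.4% in Mct1f/fMb1Cre cells. In Mct1f/fMb1Cre cells 9 of the 11 had an unadjusted p under 0.05 in limma, beside 86.1% of all genes. S1pr1, the receptor that draws lymphocytes towards blood and lymph, was at 128.25 and 119.58 FPKM in Mb1Cre and at 111.69 and 122.33 FPKM in Mct1f/fMb1Cre cells on day 0. On day 3 it was at 6.37 and 5.68 FPKM and at 12.89, 11.78 and 11.58 FPKM, a log2 fold change of -4.15 in Mb1Cre and -3.17 in Mct1f/fMb1Cre cells. S1pr3 was thus below S1pr1 on day 0 and above it on day 3 in every library. S1pr4 had log2 fold changes of -1.70 and -1.17, and S1pr2 was between 1.32 and 2.15 FPKM in all libraries. Spns2, the exporter of the lipid, had log2 fold changes of -3.55 and -3.39. B2m, the small subunit that pairs with CD1d, rose by 0.63 in Mb1Cre cells while Cd1d1 fell, and was at 0.45, under the limit, in Mct1f/fMb1Cre cells.

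**Figure D4:**
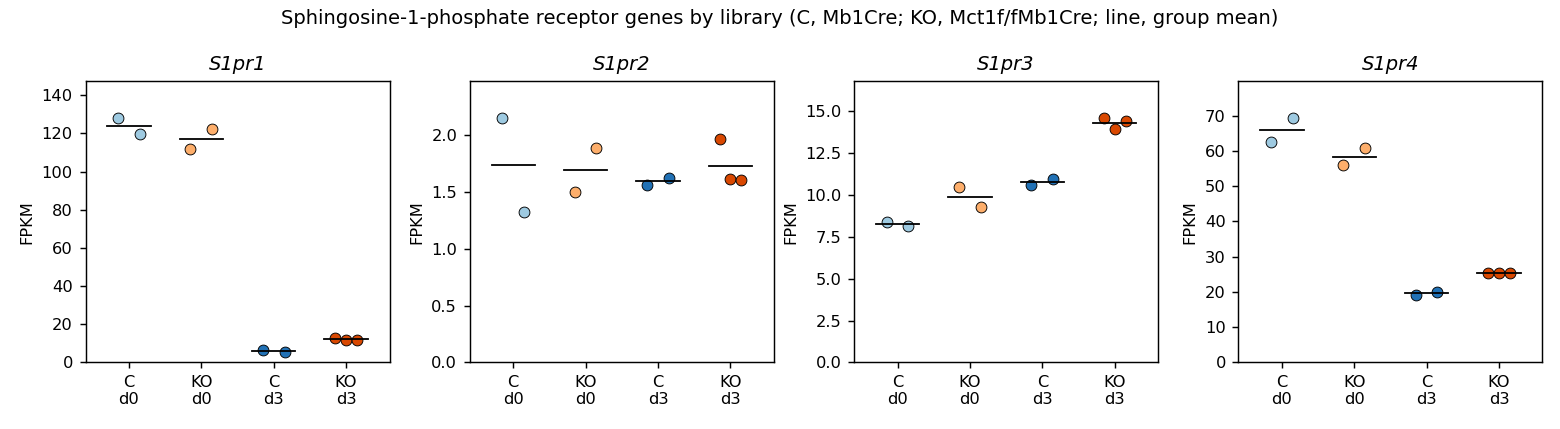
FPKM of 4 sphingosine-1-phosphate receptor genes in each library on linear axes from 0, with the groups of the plot of all members and lines at group means. S1pr1 and S1pr4 are lower on day 3 in both genotypes, S1pr2 stays between 1.32 and 2.15 FPKM, and S1pr3 is highest in the KO libraries of day 3.

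Genes of follicular B cells, the main other B cell type of the spleen, were read beside the members. Of 4 listed genes 3 were tested, and the chemokine receptor genes Cxcr5 and Ccr7 fell in both genotypes. Cxcr5 changed by -1.09 in Mb1Cre and -1.28 in Mct1f/fMb1Cre cells, and Ccr7 by -0.91 and -1.68. Fcer2a, which encodes CD23, a protein low on marginal zone B cells, had log2 fold changes of 0.43 and 0.43, under the limit.

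The second comparison asked whether loss of MCT1 changed the members in activated cells. On day 3 none of the 10 members was called higher or lower in Mct1f/fMb1Cre than in Mb1Cre cells by limma, and 5 had an unadjusted p under 0.05, as did 3142 of the 10823 genes (29%). Of all genes tested 0.887% were called higher and 1.53% lower. With no limit on the fold change 3 members were higher and none lower, Dtx1, S1pr3 and Cr2, beside 6.03% of all genes higher and 9.21% lower. The values of the groups did not overlap for 5 of the 10 members (Cr2, S1pr3, Dtx1, Myof and Tm6sf1), which is close to the 47.1% of all genes.

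Dtx1 was 1.43-fold higher in Mct1f/fMb1Cre cells on day 3, with means of 16.1 ± 1.49 FPKM (SD, n = 3) and 11.3 ± 0.523 FPKM (n = 2). Each of the 3 floxed libraries was above both control libraries. The log2 fold change was 0.48 ± 0.07 (SE, adjusted p = 0.0011, limma) and lay under the limit. It passed the limit, at 0.52, without Mb1Cre day 3 replicate 1 and, at 0.55, without Mct1f/fMb1Cre day 3 replicate 1. S1pr3 was 1.33-fold higher, with means of 14.3 ± 0.332 FPKM (n = 3) and 10.8 ± 0.247 FPKM (n = 2) and a log2 fold change of 0.38 ± 0.06 (SE, adjusted p = 0.0017, limma). Cr2 was 1.40-fold higher at a very low level, 2.17 ± 0.174 FPKM (n = 3) beside 1.55 ± 0.0778 FPKM (n = 2), with a log2 fold change of 0.32 ± 0.09 (SE, adjusted p = 0.045, limma). Leaving out single libraries moved the adjusted p of Cr2 between 0.0059 and 0.22, the highest of them without Mb1Cre day 3 replicate 1.

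The other members differed less between the genotypes on day 3. Myof had a log2 fold change of 0.20 (95% interval 0.01 to 0.40, adjusted p = 0.15, limma) and Tm6sf1 one of -0.24 (95% interval -0.41 to -0.06, adjusted p = 0.077). For Notch2 the interval reached from -0.16 to 0.10, for Cd1d1 from -0.13 to 0.13, for Hes1 from -0.21 to 0.26, for Cd9 from -0.06 to 0.23 and for Plac8 from -0.08 to 0.24. A change past the limit of 0.5 thus lay outside the interval for each of these 7 genes. Among the other lists Jag2 was lower by 1.00 on the log2 scale in the floxed genotype on day 3, S1pr1 was 0.90 higher and Ccr7 was 0.98 lower, and no other gene of the Notch, partner and follicular lists was called. Among genes listed as markers of other cells 3 were called on day 3. The myeloid markers Lyz2 (0.71) and Adgre1 (0.68) were higher in the floxed genotype, while S100a8 (-0.32) and S100a9 (-0.82) had the opposite sign without a call. Flt3, from the dendritic cell list, had a log2 fold change of -1.21, at 17.61 and 17.36 FPKM in Mb1Cre and at 6.67, 6.96 and 7.41 FPKM in Mct1f/fMb1Cre cells. Itgax (0.04) and Siglech (0.03) of the same list were not called and were at 0.45 FPKM or less on day 3. The markers' part in the members' values was not tested.

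**Figure D5:**
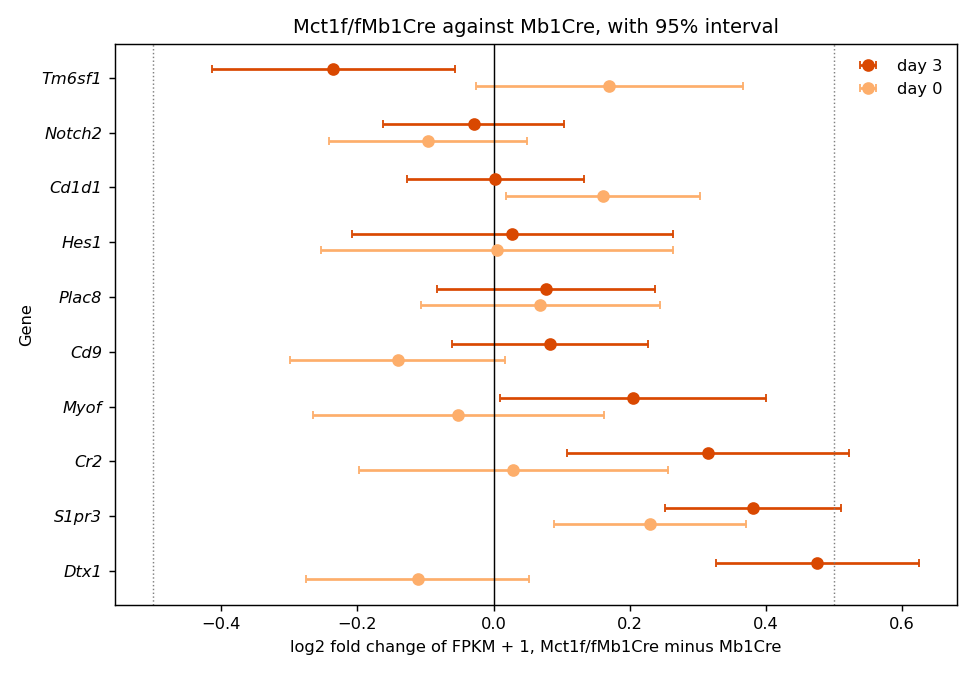
Log2 fold change of FPKM + 1, Mct1f/fMb1Cre against Mb1Cre, for each member on day 3 (dark) and day 0 (light), with 95% intervals from limma as bars and dotted lines at 0.5 and -0.5. All points lie between the dotted lines, the highest being Dtx1 on day 3 at 0.48 and the lowest Tm6sf1 on day 3 at -0.24.

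Before activation the members were close between the genotypes. The groups of day 0 were not balanced for sex, since Ddx3y was at 31.13 FPKM in 1 of the 2 floxed libraries. It was at 0.24 FPKM or less in both control libraries. Differences by genotype on day 0 can therefore not be fully told apart from sex. On day 0 limma called none of the 10 members, 2 had an unadjusted p under 0.05 (11.7% of all genes did), and 0.24% of all genes were called higher and 0.037% lower. The 2 were S1pr3, with a log2 fold change of 0.23 (95% interval 0.09 to 0.37, adjusted p = 0.22), and Cd1d1, with 0.16 (95% interval 0.02 to 0.30, adjusted p = 0.38). Both were above the control libraries in both floxed libraries, and the groups did not overlap for 6 of the 10 members, beside 38.4% of all genes. Without Mb1Cre day 0 replicate 2 the all-gene counts rose from 26 higher and 4 lower to 57 and 44, and without Mct1f/fMb1Cre day 0 replicate 2 to 56 and 11, with still no member called. In the last of these fits the only floxed library of day 0 had Y-linked transcript and both control libraries lacked it. Genotype and sex cannot be told apart there. Cr2 had a log2 fold change of 0.03 with an interval from -0.20 to 0.26 in the fit of all libraries. Its control libraries were themselves apart (122.28 and 93.92 FPKM). Notch2 was at -0.10 with an interval from -0.24 to 0.05, and Hes1 at 0.01 with an interval from -0.25 to 0.26. The 10 intervals together reached from -0.30 for Cd9 to 0.37 for S1pr3 and Tm6sf1. Among the genes listed as markers of other cells Jchain (0.97) and Hba-a1 (0.64) were called higher in the floxed genotype on day 0, and none was called lower. Sdc1 (-0.20) and Prdm1 (-0.01), from the plasma cell list that holds Jchain, were not called, nor was the erythroid marker Hbb-bs (0.39). Their part in the members' values was not tested.

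A last comparison asked whether activation acted differently on the members in the 2 genotypes, with the interaction of genotype and day in the same limma model. Dtx1 was the 1 member called, in the positive direction, and none was called in the negative direction, beside 1.02% and 2.22% of all genes. Its log2 difference between the genotypes' responses was 0.59 ± 0.10 (SE, adjusted p = 0.0066), which means that Dtx1 fell less in Mct1f/fMb1Cre than in Mb1Cre cells, to 19.8% beside 12.8% of the day 0 level. It stayed between 0.53 and 0.66 when each library was left out in turn, with a highest adjusted p of 0.033. With a pseudocount of 5 it was 0.48, under the limit, and the call was lost. Tm6sf1 had the opposite sign, -0.41 ± 0.12 (SE, adjusted p = 0.060), and was left at 19.4% of its day 0 level in Mct1f/fMb1Cre and at 25.9% in Mb1Cre cells. Cd9 was at 0.22 ± 0.10 (SE, adjusted p = 0.18). For Notch2 (0.07 ± 0.09), Hes1 (0.02 ± 0.16) and Plac8 (0.01 ± 0.11) the differences were smaller than their standard errors. In the other lists S1pr1 (0.98) and S1pr4 (0.53) were called with a positive and Jag2 (-0.99) and Ccr7 (-0.78) with a negative interaction. Of the genes listed as markers of other cells, Lyz2 (0.57) and Adgre1 (0.51) were called with a positive interaction. Flt3 (-1.52, dendritic cell list), Jchain (-1.44, plasma cell list) and Hba-a1 (-0.91, erythroid list) were called with a negative one. The myeloid markers did not go one way. With activation S100a8 changed by -5.99 in Mb1Cre and -7.04 in Mct1f/fMb1Cre cells, and S100a9 by -6.26 and -7.74. Csf1r (-5.84 and -5.67), Itgam (-2.61 and -2.49) and Cd14 (-2.37 and -2.42) differed less. The part of these markers in the value of Dtx1 was not tested. Because the Mb1Cre days also differed in Y-linked transcript, the interaction cannot be told apart from that difference.

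Among the genes tested other than the members, those with a pattern most like a member were found by Pearson's r of log2(FPKM + 1) over the 9 libraries. For the members other than S1pr3 these correlations rest mainly on the split between the days, which they share with many other genes. The nearest gene to Cr2 was Zbtb4 (r = 0.9996), to Cd1d1 Clec4n (r = 0.9997), to Dtx1 Rgs19 (r = 0.9993), to Notch2 Colgalt1 (r = 0.9993) and to Hes1 Kifc2 (r = 0.9995). The pattern of S1pr3 was the least shared, with Meis3 as its nearest gene at r = 0.9751. Within each day the values of both genes also lay higher in the floxed libraries than in the control libraries.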

How the data were processed

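RNA sequencing libraries of splenic B cells (9 in all) were grouped by the genotype and day in their labels. Per the labels, the authors' processing named Bowtie2 and GRCm38 (mm10). The authors deposited FPKM for 17596 genes, normalised to transcript length and mapped fragments. The annotation, counting and strand setting are not given in the sources used here, and a deposited FPKM table holds no depth, so no counting interval could be given.

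A pseudocount of 1 was added to the deposited FPKM before taking log2, with no other scaling. The 10823 genes whose FPKM averaged 1 or more over the libraries, all 10 members among them, entered limma (version 3.58.1, R 4.3.3). The model held the means of the 4 groups, and empirical Bayes moderation used a trend. P-values were adjusted by Benjamini-Hochberg over all genes tested. Calls needed a log2 fold change over 0.5 in size at an adjusted p under 0.05. The model was also run on simulated normal values on the log2 scale, which meet its assumptions. That run cannot speak to the sex imbalance, the mix of cells or the unknown depth. All members were named, and from the other lists the genes called, with examples of the largest changes. The nearest gene was that of highest Pearson's r outside the members. Members, lists and tests were chosen with earlier results of these data known. Promoter sequences, starts and gene coordinates are RefSeq's on GRCm38.p6, and exon counts and overlaps are from GENCODE vM21. Alternatives changed the pseudocount, filter, scaling, spread, trend, replicate block, fold limit and libraries. Some genes of the comparison and marker lists are not reported here.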

Additional observations from a re-analysis of the deposited data

Results flagged for a closer look

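Dtx1 was flagged because its response to activation differed between the genotypes. The log2 difference of the responses was 0.59 ± 0.10 (SE, adjusted p = 0.0066, limma), with the gene at 19.8% of its day 0 level in Mct1f/fMb1Cre and at 12.8% in Mb1Cre cells. All 3 floxed libraries of day 3 were above both control libraries. On day 0 both floxed libraries were below both control libraries, but the difference was small (log2 fold change -0.11, adjusted p = 0.61, limma). With a pseudocount of 5 the difference of the responses was 0.48, under the limit of 0.5. Of all genes tested 1.02% were called in this direction. Both Mb1Cre libraries of day 0 lacked Y-linked transcript and both of day 3 held it. The difference of the responses therefore cannot be told apart from the sex of the mice. No cause was tested.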

How the results depend on the processing

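No member changed direction in a call under any alternative, and the counts of members that fell were the same or within 1.5 times of 9 in both genotypes, the lowest being 8 with a log2 limit of 1, which Plac8 missed, and with a filter at a mean of 5 FPKM, which left Myof out. The count of members that rose with activation in Mb1Cre cells went from 0 to 1 (S1pr3) with median-of-ratios scaling, quantile normalisation and no fold limit. In Mct1f/fMb1Cre cells it went from 0 to 1 (S1pr3) with a pseudocount of 0.1, median-of-ratios scaling, quantile normalisation and no fold limit, and it ranged from 0 to 1 when single libraries were left out. It was 1 without Mct1f/fMb1Cre day 0 replicate 1 (0.57) and without Mct1f/fMb1Cre day 3 replicate 2 (0.51). On day 3 the count higher in Mct1f/fMb1Cre cells went from 0 to 1 (Dtx1, 0.51) with a pseudocount of 0.1 and to 3 with no fold limit, and ranged from 0 to 1 without single libraries. The interaction count went from 1 to 0 with a pseudocount of 5, where Dtx1 was at 0.48, and with a log2 limit of 1. A library left alone in its group was assumed to vary like the other groups. The median activation change of all genes was -0.31 and -0.30 with a common total and 0.06 and 0.06 with median-of-ratios scaling. All-gene activation counts in Mb1Cre cells (2687 higher, 3571 lower) became 2078 and 4416 with the former and 3425 and 2761 with the latter, and 1324 and 1867 with a log2 limit of 1. On day 3 the genotype counts of 96 higher and 166 lower became 27 and 27 with a log2 limit of 1 and 44 and 76 with a pseudocount of 5, 176 and 245 with a pseudocount of 0.1 and 653 and 997 with no fold limit. On day 0 the counts of 26 and 4 became 0 and 2 with only the groups compared in the fit, 17 and 4 with no trend, 8 and 2 with no filter, 14 and 2 with a log2 limit of 1, 38 and 7 with no fold limit, 57 and 44 without Mb1Cre day 0 replicate 2, and 56 and 11 without Mct1f/fMb1Cre day 0 replicate 2. The interaction counts of 110 and 240 became 43 and 113 with a pseudocount of 5, 72 and 176 with no filter, 16 and 40 with a log2 limit of 1, and 413 and 607 with no fold limit. Deviations of same-numbered libraries correlated between -0.12 and 0.06. In a group of 2 libraries the deviations mirror each other, so these values cannot settle whether the numbers pair the libraries. With the replicate block the counts stayed at 9 lower with activation, 0 called by genotype on day 3 and 1 by interaction. Crossing the numbers of the Mb1Cre libraries, chosen after seeing the data, also gave 9 lower and 0 higher. With 2 or 3 libraries per group and no depth, small differences may have been missed.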
